A study of Saccharomyces cerevisiae with 50 samples.

Results

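The 3 budding yeast (Saccharomyces cerevisiae) strains labelled as lacking a copy of the genes for the large-subunit protein L40 (eL40) were set against the other strains with deletions of 60S ribosomal protein genes. They were taken by their labels: rpl40a (strain number 7889), rpl40b (2700) and rpl40a/+ rpl40b/+ (3654v). Each had 1 footprint library and 1 mRNA library, which makes 6 of the 50 libraries and 3 of the 25 strains of the series (wild type, sampled under 1 strain number, counts as 2 strains). The comparison set held the other strains whose labels begin with rpl, 11 in mRNA and 10 in footprints, because the footprint library labelled rpl26a/+ rpl26b/+ (4654v) was left out.

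L40 is made as a fusion. RPL40A and RPL40B each encode the same protein, a ubiquitin unit joined to the N-terminus of the ribosomal protein, and the ubiquitin is cut off after synthesis. L40 joins the 60S subunit late, in the cytoplasm, near the site where elongation factors bind. RPS31 encodes a similar fusion of ubiquitin with a 40S protein, and UBI4 encodes a head-to-tail chain of ubiquitin units that yeast raises under stress. A deletion of an RPL40 gene therefore removes a source of a ribosomal protein and of ubiquitin at once.

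All cells were of the SK1 background, grown with shaking in YEPD with 2% glucose at 30 °C and collected in exponential growth at an OD600 of 0.6. The strains labelled rpl40a and rpl40b, written without a plus sign, were treated as single deletions with no intact copy of that gene. The third is labelled as heterozygous for both genes. The other RPL strains were rpl7a, rpl7a/+ rpl7b/+, rpl24a, rpl24b, rpl26a, rpl26b, rpl26a rpl26b, rpl26a/+ rpl26b/+ (mRNA only), rpl38, rpl41a and rpl41b. The labels do not state the ploidy of the single deletions, whether the deletions were remade independently, or any batch. Every strain has a different genotype, so errors and p-values measure the spread between strains, and a single strain set against the others is 1 library whose spread is assumed to be that of the other RPL strains.

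Levels are given as RPKM, reads per kilobase of coding length and 1000000 assigned reads. RPKM is a share of a library, so a change in the total RNA of the cells cannot be seen in it. The Rpl40 libraries held 2.634 M assigned reads in rpl40a, 2.346 M in rpl40b and 1.976 M in rpl40a/+ rpl40b/+ in mRNA (M, 1000000 reads), and 6.568, 7.034 and 5.729 M in footprints. The other RPL libraries held 1.1 to 3.506 M in mRNA and 4.518 to 8.572 M in footprints. Summed mRNA of 6 a-cell markers was 32.0 RPKM in rpl40a, 10.8 in rpl40b and 38.6 in rpl40a/+ rpl40b/+, with MFA2 at 0 in all 3. The other RPL strains had 8.67 to 31.1 RPKM and wild type 12.7 and 40.5. Sums of 4 alpha-cell markers were 22.1, 19.0 and 17.9 RPKM, against 11.4 to 27.0 in the other RPL strains. Those of 6 general haploid markers were 8.86, 10.7 and 13.9, against 8.11 to 29.8. The 7 meiotic markers summed to 14.6, 14.3 and 10.9 RPKM, against 12.2 to 18.6. The medians of the nuclear chromosomes, relative to the median of all genes (log2), lay between -0.07 and 0.07 in the 6 libraries.

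The deleted genes were read first. In rpl40a, RPL40A (YIL148W, chromosome IX) had 12.8 RPKM in mRNA and 92.7 in footprints, from 11 and 199 reads. The other RPL strains had 2439, 2633 and 2836 RPKM in mRNA (lowest, median and highest) and 3993, 4510 and 4685 in footprints. RPL40A was thus at 0.485% and 2.05% of the usual level, and it fell by 7.57 ± 0.09 in mRNA (log2, SE, limma adjusted p = 7.03e-16) and by 5.56 ± 0.11 in footprints (adjusted p = 2.65e-13).

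In rpl40b, RPL40B (YKR094C, chromosome XI) had 30.0 RPKM in mRNA and 58.7 in footprints, from 23 and 135 reads. The other RPL strains had 1483, 1657 and 1830 RPKM in mRNA and 2409, 2816 and 3414 in footprints. RPL40B fell by 5.74 ± 0.11 (log2, SE, limma adjusted p = 3.39e-13) and by 5.59 ± 0.16 (adjusted p = 4.12e-11). The sources used here do not say how reads that match both copies were treated, so whether the few reads of a deleted gene came from its copy cannot be told.

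In the strain labelled rpl40a/+ rpl40b/+ the 2 genes differed. RPL40B had 925.3 RPKM in mRNA and 1333 in footprints, 55.8% and 47.3% of the median of the other RPL strains, and it fell by 0.84 ± 0.11 (log2, SE, limma adjusted p = 0.0177) and by 1.11 ± 0.16 (adjusted p = 0.029). The mRNA call was lost without rpl26a (adjusted p = 0.0505), and the footprint call without rpl38, rpl41a, rpl26a, rpl26b or rpl26a rpl26b (0.0508 to 0.0677) and under median-of-ratios scaling (0.122). RPL40A had 2559 RPKM in mRNA, inside the range of the other RPL strains and at 97.2% of their median, with a log2 difference of -0.03 whose 95% interval ran from -0.23 to 0.17. In footprints RPL40A had 3582 RPKM, below all 10 other RPL strains at 79.4% of their median, with a log2 difference of -0.30 (interval -0.54 to -0.07) that did not pass the test (adjusted p = 0.681). The RPL40A mRNA interval does not hold the -1 that a halved level would give, whereas RPL40B was near a halved level in both assays. A level of mRNA does not give the genotype, and whether the genotype is as labelled was not tested. The strain is called below by its label only.

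The intact copy showed little difference in the single deletions. RPL40B had 1847 RPKM of mRNA in rpl40a, just above the highest of the other RPL strains, and 3070 RPKM of footprints, inside their range. The log2 difference was 0.16 in mRNA (95% interval -0.09 to 0.40) and 0.10 in footprints (-0.24 to 0.44). RPL40A in rpl40b had 2435 RPKM of mRNA, just below the lowest of the others, and 4269 of footprints, inside their range.

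The sum of both genes gives the supply of L40 message. It was 1860 RPKM in rpl40a, 2465 in rpl40b and 3485 in rpl40a/+ rpl40b/+ in mRNA, against 4011, 4273 and 4491 in the other RPL strains and 4601 and 4152 in wild type. These are 43.5%, 57.7% and 81.55% of the median of the other RPL strains. In footprints the sums were 3162, 4328 and 4915 RPKM, against 6402, 7302 and 8099, which are 43.3%, 59.3% and 67.3%. The 3 strains lay below every other RPL strain in both assays, with rpl40a lowest, rpl40b next and rpl40a/+ rpl40b/+ highest. RPL40B made up 36.2 to 41.3% of the sum in the mRNA of the other RPL strains and 26.6% in rpl40a/+ rpl40b/+.

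**Figure D1:**
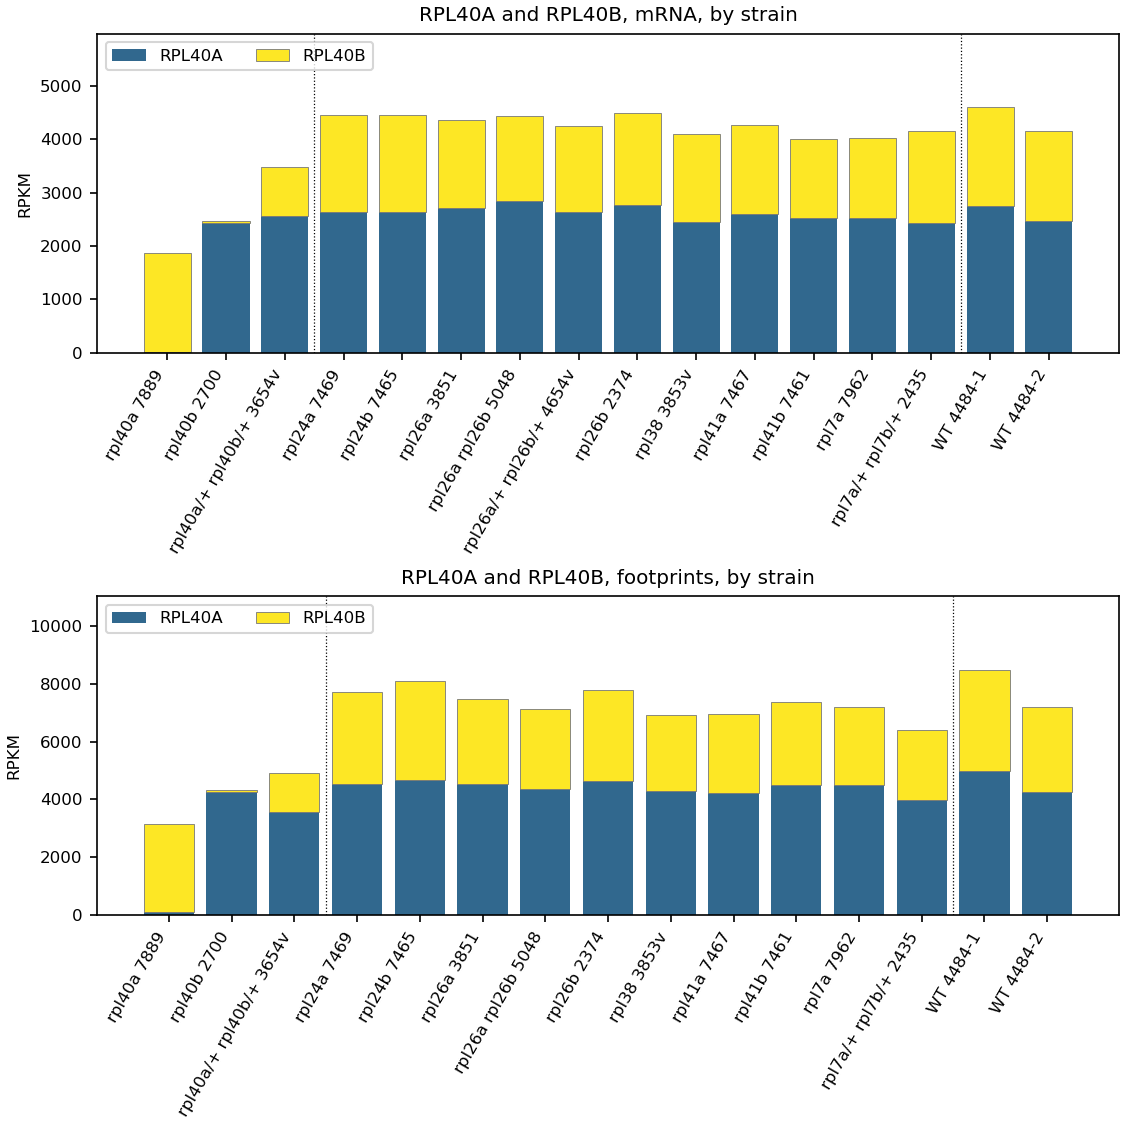
RPKM of RPL40A (blue) and RPL40B (yellow), stacked, for each strain in mRNA (top) and footprints (bottom), with 1 library per bar. The 3 Rpl40 strains are left of the first dotted line and wild type is right of the second. The summed mRNA bars of the Rpl40 strains reach 1860, 2465 and 3485 RPKM, against 4011 to 4491 in the other RPL strains.

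The other ubiquitin genes were examined next. UBI4 had 246.8 RPKM of mRNA in rpl40a, 159.4 in rpl40b and 129.5 in rpl40a/+ rpl40b/+, against 51.8, 77.1 and 237 in the other RPL strains and 69.9 and 108.7 in wild type. Its footprints were at 509.6, 384.5 and 182.6 RPKM, against 77.5, 169.3 and 499.6, and 155.2 and 162.6 in wild type. Only rpl40a lay above every other RPL strain, and it did so by little, since rpl7a was close behind in both assays.

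Across the 3 strains UBI4 had a log2 difference of 0.83 ± 0.37 in mRNA (SE, 95% interval 0.05 to 1.61, limma adjusted p = 0.997) and of 0.94 ± 0.45 in footprints (-0.01 to 1.89, adjusted p = 1), and neither passed the test. RPS31, the fusion with a 40S protein, had 5294, 5656 and 6536 RPKM of mRNA in rpl40a, rpl40b and rpl40a/+ rpl40b/+, against 5412, 6504 and 7029 in the other RPL strains. Its log2 difference across the 3 strains was -0.11 in mRNA (interval -0.29 to 0.06) and -0.12 in footprints (-0.36 to 0.12).

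**Figure D2:**
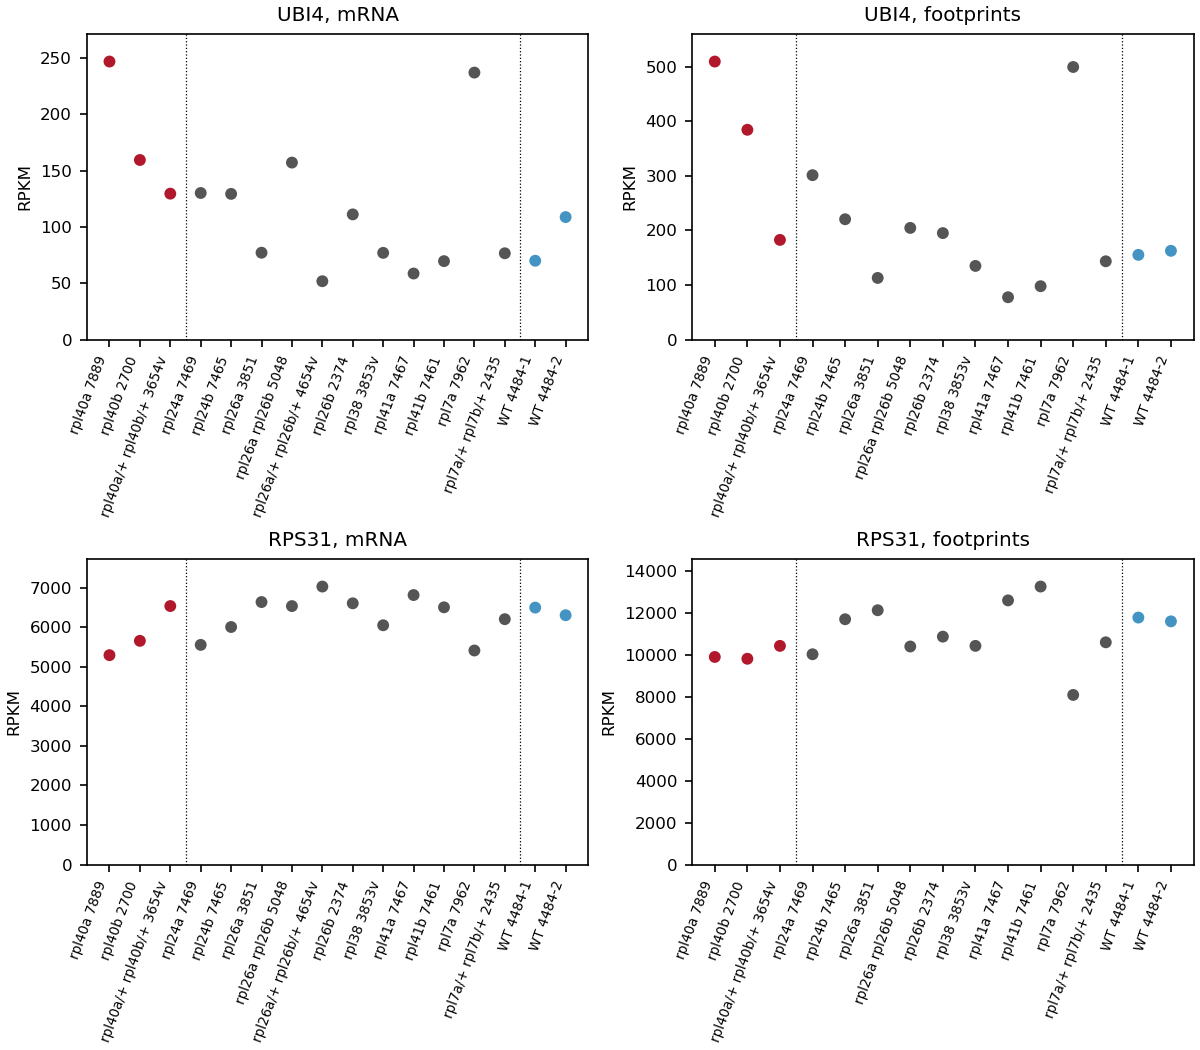
RPKM of UBI4 (top) and RPS31 (bottom) in mRNA (left) and footprints (right), with 1 point per library. Red points are the 3 Rpl40 strains, grey points the other RPL strains and blue points wild type. UBI4 mRNA is at 246.8 RPKM in rpl40a and at 237 in rpl7a, the highest of the other RPL strains.

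Among genes that use or recycle ubiquitin, UBP6 stood on the high side in all 3 strains. Most proteasome subunits did so in the single deletions only. Most of these values were inside the range of the other strains. In mRNA 14 genes of ubiquitin turnover had median log2 differences from the median of the other RPL strains of 0.054 in rpl40a and 0.005 in rpl40b. In footprints the 12 tested had 0.028 and 0.161. The 18 ubiquitin conjugation enzymes had 0.079 and 0.100 in mRNA, and the 15 tested in footprints 0.102 and 0.101. UBP6, the deubiquitinase bound to the proteasome, had 108.1, 103.9 and 112.1 RPKM of mRNA in rpl40a, rpl40b and rpl40a/+ rpl40b/+, against 72.6, 87.7 and 115.2 in the other RPL strains. RPN4, which encodes the activator of proteasome genes, had 86.0, 79.9 and 84.0 RPKM, against 63.9, 80.4 and 92.2. The 33 proteasome subunit genes had a median log2 difference from the median of the other RPL strains of 0.27 in rpl40a, 0.22 in rpl40b and -0.06 in rpl40a/+ rpl40b/+ in mRNA, and of 0.31, 0.23 and -0.06 in footprints. In rpl40a 32 of 33 in mRNA and 33 in footprints lay above the median of the other RPL strains, and in rpl40b 31 and 32. The medians of all genes were 0.04, 0.05 and 0.02 in mRNA and 0.04, 0.11 and -0.10 in footprints. Few single members left the range of the other strains: 3 of 33 lay above it in rpl40a mRNA (9.09%, against 10.3% of all genes), while rpl7a had a proteasome median of 0.36, and without rpl7a 11 of 33 did. In footprints 2 of 33 lay above in rpl40a (6.06%, against 13.1% of all genes), 19 without rpl7a, and 9 under median-of-ratios scaling (27.3%, against 12.9%), which sets the typical gene equal between libraries. When any 1 strain was left out, at most 689 of all 5103 genes in mRNA and 822 of 4222 in footprints lay above in rpl40a.

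The question of the design was whether strains short of L40 share a pattern that the other 60S strains lack. None was found gene by gene. Of 5103 genes tested in mRNA and 4222 in footprints, 0 passed the limma test in either direction (0% called), 152 and 89 had an unadjusted p under 0.05, and voom, the count-based form of limma, called 0 in both. The median SE was 0.13 in mRNA and 0.14 in footprints (log2). RPL40A and RPL40B are among the genes that did not pass, since each is near its usual level in at least 1 of the 3 strains.

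A small number of genes had all 3 Rpl40 strains outside the range of the others. In mRNA 11 genes lay above (0.216% of those tested) and 3 below (0.0588%), and in footprints 11 above (0.261%) and 4 below (0.0947%). These are given as values and not as changes, for those with a mean of at least 50 RPKM.

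In mRNA, MED7, a subunit of the Mediator complex, had 64.8 RPKM in rpl40a, 59.5 in rpl40b and 64.0 in rpl40a/+ rpl40b/+, against 37.3, 47.9 and 56.0 in the other RPL strains, a log2 difference of 0.39 ± 0.09 (SE, limma adjusted p = 0.997). RRP7, a 40S assembly factor, had 142.5, 138.5 and 134.1 RPKM, against 79.6, 118.8 and 133.4. VAC17, an adaptor for the inheritance of the vacuole, had 63.0, 62.6 and 63.5 RPKM, against 46.5, 53.7 and 61.7. In RRP7 and VAC17 the lowest Rpl40 strain stood close to the highest other strain. KSP1, a protein kinase gene, had 84.6, 86.8 and 81.2 RPKM, against 63.9, 75.1 and 78.0. CPP2 (YDR210W) was at 583.1, 601.4 and 638.5 RPKM against 497.8, 553.7 and 578.7. Wild type had 588.2 and 590.8 RPKM of CPP2, inside the span of the Rpl40 strains, and 67.2 and 82.9 of KSP1, the higher inside it too. In MED7, RRP7 and VAC17 wild type lay below all 3 Rpl40 strains.

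On the low side, HIS2, an enzyme of histidine synthesis, had 56.1, 52.2 and 59.2 RPKM of mRNA, against 59.6, 66.9 and 80.3. Wild type had 45.9 and 47.2 RPKM of it, lower still. AKR1, a palmitoyl transferase, had 46.7, 49.6 and 47.1 RPKM, against 51.1, 54.6 and 65.3. FLC3, of the family of putative flavin carriers, had 49.5, 55.2 and 54.9 RPKM, against 55.3, 59.0 and 62.9.

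In footprints TIF35, which encodes the g subunit of the initiation factor eIF3, lay above the range at 812.6, 784.6 and 752.9 RPKM in rpl40a, rpl40b and rpl40a/+ rpl40b/+, against 601.6, 719.4 and 740.4. BET3, a subunit of the TRAPP tethering complex, had 102.1, 99.95 and 101.6 RPKM, against 71.9, 90.5 and 97.4. POB3, of the FACT histone chaperone, had 132.4, 134.7 and 136.2 RPKM, against 99.6, 120.4 and 131.7. The uncharacterised YPR172W had 146.6, 141.6 and 147.2 RPKM, against 115.6, 128.5 and 140.3, and VPS74, which sorts Golgi enzymes, had 100.6, 100.9 and 100.1 RPKM, against 78.5, 93.3 and 99.5. SEC61, the channel of protein entry into the endoplasmic reticulum, lay below, at 187.5, 188.5 and 197.3 RPKM against 201.7, 223.2 and 250.5. Its log2 difference was -0.22 ± 0.08 (SE, limma adjusted p = 1). Wild type had 195.0 and 224.0 RPKM of SEC61 footprints, the lower inside the span of the Rpl40 strains. In TIF35, BET3, POB3, YPR172W and VPS74 wild type lay below all 3 Rpl40 strains.

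Translational efficiency, the footprint minus the mRNA level of a strain (log2), gave 0 genes of 4199 past the test (0% called), 83 at an unadjusted p under 0.05 and a smallest limma adjusted p of 0.289. All 3 strains lay above the others in 6 genes (0.143%) and below in 2 (0.0476%). NRE1 was at 1.04, 0.90 and 0.82, against 0.34, 0.63 and 0.75 in the other RPL strains. END3, an endocytosis gene, was at 0.89, 0.87 and 0.84, against 0.24, 0.60 and 0.81. Wild type was at 0.77 and 0.89 for NRE1 and at 0.29 and 0.39 for END3.

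The genes beside the deletions were read for effects on neighbours. SLN1 and MLP2 flank RPL40A, and in rpl40a their mRNA was at 33.0 and 40.9 RPKM, inside the ranges of 31.7 to 42.4 and 37.2 to 49.5 RPKM in the other RPL strains. Their footprints were below the minimum of 10 RPKM and were not tested. In rpl40a SLN1 had 4.18 RPKM of footprints from 99 reads, below the lowest of the others at 4.55. MLP2 had 7.70, inside the range of 6.94 to 12.2. PTR2, a di- and tripeptide transporter gene beside RPL40B, had 10.99 RPKM of mRNA in rpl40b and 96.5 in rpl40a/+ rpl40b/+, against 1.34, 13.4 and 67.4 in the other RPL strains, and the log2 difference of 3.09 in rpl40a/+ rpl40b/+ did not pass the test (limma adjusted p = 0.988). MLP1, on the other side of RPL40B, had 14.0, 13.1 and 11.9 RPKM of footprints in rpl40a, rpl40b and rpl40a/+ rpl40b/+, against 14.2, 16.8 and 22.8, while its mRNA was at 58.9, 75.7 and 77.3 RPKM, against 55.5, 64.5 and 74.8. Wild type had 12.9 and 15.1 RPKM of MLP1 footprints.

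Each strain was then set alone against the other RPL strains. In rpl40a and in rpl40b only the deleted gene passed the test in mRNA (0.0196% of genes called) and in footprints (0.0237%), with 187 and 179 genes at an unadjusted p under 0.05 in rpl40a and 99 and 43 in rpl40b. In rpl40a/+ rpl40b/+ only RPL40B passed in mRNA (0.0196%), and RPL40B and YER039C-A in footprints (0.0474%), with 200 and 306 at an unadjusted p under 0.05. The counts below are therefore positions relative to the range of the other strains, in lists that group genes by function. All genes serve as the background, and no list member other than RPL40A and RPL40B passed the test.

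The rpl40a strain had high respiratory gene expression. Of 38 nuclear genes of oxidative phosphorylation tested, 33 lay above every other RPL strain in mRNA (86.8%, against 10.3% of all genes) and 32 in footprints (84.2%, against 13.1%), and none lay below. Their median log2 difference was 0.37 in mRNA and 0.34 in footprints, against 0.04 and 0.04 for all genes. The medians of the other RPL strains ran from -0.20 to 0.15 in mRNA and from -0.10 to 0.23 in footprints, with rpl7a highest, and wild type was at 0.06 and 0.02 in mRNA. The range of members in rpl40a was 0.12 to 1.45 in mRNA, so all 38 were on the high side.

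The examples most highly expressed in the other RPL strains show the size. CYC1, the main cytochrome c, had 1988 RPKM of mRNA in rpl40a, 1825 in rpl40b and 1197 in rpl40a/+ rpl40b/+, against 1316, 1645 and 1974 in the other RPL strains. ATP2, the beta subunit of the ATP synthase, had 1678, 1251 and 1265 RPKM, against 1143, 1261 and 1404. QCR7, of respiratory complex III, had 1752, 1418 and 1182 RPKM, against 945.5, 1275 and 1449. QCR6, of the same complex, had 1236, 1219 and 786.6 RPKM, against 692.6, 1011 and 1176. In the mRNA of these 4 genes rpl40a was the highest RPL strain, rpl40b was above the range only in QCR6, and rpl40a/+ rpl40b/+ was below it only in CYC1. In footprints ATP2 had 1128, 961.1 and 1100 RPKM, against 894.6, 1022 and 1097. QCR6 had 907.9, 481.3 and 891.3 RPKM of footprints, against 453.7, 627.3 and 761.8. There rpl40b was below the median of the others and rpl40a/+ rpl40b/+ above their range, unlike in mRNA.

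The member with the highest difference, named after its value was seen, was CYC7, the cytochrome c form used at low oxygen and under stress. It had 94.2 RPKM of mRNA in rpl40a, against 10.5, 33.9 and 89.9 in the other RPL strains, a log2 difference of 1.34 ± 0.80 (SE, limma adjusted p = 0.987). In footprints it had 164.7 RPKM, against 41.7, 73.9 and 151.3.

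Mitochondrial ribosomal protein genes stood high in rpl40a as well. Of 68 tested, 18 lay above every other RPL strain in mRNA (26.5%, against 10.3% of all genes) and 34 in footprints (50%, against 13.1%), with medians of 0.21 and 0.16. Wild type had medians of 0.09 and 0.10 in mRNA and of 0.06 and 0.17 in footprints, so 1 wild type library was above rpl40a in footprints. Of the 4 most expressed members, MRPS12, MRPL33 and MRPL37 had 557.1, 337.1 and 341.1 RPKM of footprints in rpl40a, against highest values of 541.2, 326.7 and 307.4 in the other RPL strains. The fourth, IMG1, was inside the range at 384.0 RPKM against a highest value of 394.4, and in mRNA all 4 were inside it. MRPL33 footprints reached 368.8 RPKM in wild type. The genes encoded in mitochondrial DNA did not stand high, with a median of -0.37 over the 7 tested in mRNA, and the other RPL strains ran from -0.50 to 0.65. In translational efficiency the medians of rpl40a were -0.03 for oxidative phosphorylation and 0.00 for mitochondrial ribosomal proteins, so mRNA and footprints stood high by similar amounts.

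Under median-of-ratios scaling the oxidative phosphorylation counts in rpl40a were 26 of 38 in mRNA and 25 of 38 in footprints, and the mitochondrial ribosomal counts 14 and 24 of 68. All genes then gave 8.76% and 12.9%. Without any 1 of the other RPL strains the oxidative phosphorylation count ran from 33 to 35 in mRNA and from 32 to 34 in footprints.

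Stress genes of the Msn2/4 type stood high in rpl40a too. Their median was 0.58 in mRNA (31 tested) and 0.62 in footprints (26 tested), against 0.17 and 0.08 in rpl40b and 0.23 and 0.30 in rpl40a/+ rpl40b/+. The 2 wild type libraries also stood far apart, at -0.21 and 0.28 in mRNA and at -0.26 and 0.36 in footprints. In mRNA 7 of 31 members lay above every other RPL strain (22.6%, against 10.3% of all genes) and in footprints 6 of 26 (23.1%, against 13.1%). The rpl7a strain had medians of 0.54 and 0.74, and without it the counts were 16 and 20. The counts of all genes rise too when a strain is left out, in footprints to at most 822 of 4222. HSP12, a membrane-stabilising stress protein that was chosen after its value was seen, had 447.2 RPKM of mRNA in rpl40a, against 16.8, 45.4 and 196.6 in the other RPL strains, a log2 difference of 3.29 ± 0.91 (SE, limma adjusted p = 0.987). It had 48.95 RPKM in rpl40b and 14.99 in rpl40a/+ rpl40b/+. SOD2, the mitochondrial superoxide dismutase and one of the most expressed members, had 476.7, 375.2 and 376.7 RPKM of mRNA in rpl40a, rpl40b and rpl40a/+ rpl40b/+, against 303.0, 341.0 and 440.4. The other 3 of the 4 most expressed members, HOR7, GPD1 and PNC1, were inside the range in rpl40a, at 2987, 278.6 and 332.1 RPKM against highest values of 3316, 349.3 and 435.4.

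Other groups in rpl40a were smaller. The 8 core histone genes had a median of 0.24 in mRNA and in footprints, with 5 above every other RPL strain in mRNA (62.5%, against 10.3% of all genes) and 4 in footprints (50%, against 13.1%), and rpl7a had a footprint median of 0.24 as well. HHT2, a histone H3 gene, had 1753 RPKM of mRNA in rpl40a, against 1209, 1449 and 1608, and HTB1, a histone H2B gene, was inside the range. In the iron regulon 6 of 15 lay above in mRNA (40%, against 10.3%) but 1 of 8 in footprints (12.5%, against 13.1%), where the median was 0.20 in rpl40a and 0.40 in rpl7a. ISU1, a scaffold for iron-sulfur clusters, was at 484.6 RPKM of mRNA in rpl40a against 296.5, 341.8 and 416.4, and FTR1, FET3 and HMX1, the others of the 4 most expressed, were inside the range. On the low side stood genes of sulfate assimilation and methionine, with 8 of 20 below every other RPL strain in mRNA (40%, against 4.82% of all genes) and 6 of 16 in footprints (37.5%, against 6.85%). MET6, methionine synthase, had 171.1 RPKM of mRNA in rpl40a, against 207.3, 280.4 and 367.8, and SAM2 was below the range too, whereas SAM1 and CYS3 were inside it. Of 27 genes of glycolysis, fermentation and the pentose phosphate path, 7 lay below in each assay (25.9%). All genes gave 4.82% in mRNA and 6.85% in footprints. Under median-of-ratios scaling 6 of the 27 lay below in mRNA (22.2%, against 7.27%) and 5 in footprints (18.5%, against 10.2%). The 4 most expressed were TDH3, FBA1, PDC1 and CDC19. Of these only PDC1 lay below the range in mRNA (8935 RPKM against a lowest value of 9183) and only CDC19 in footprints (7266 against 7475). TDH3 went the other way in mRNA, above the median of the other RPL strains but inside their range.

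**Figure D3:**
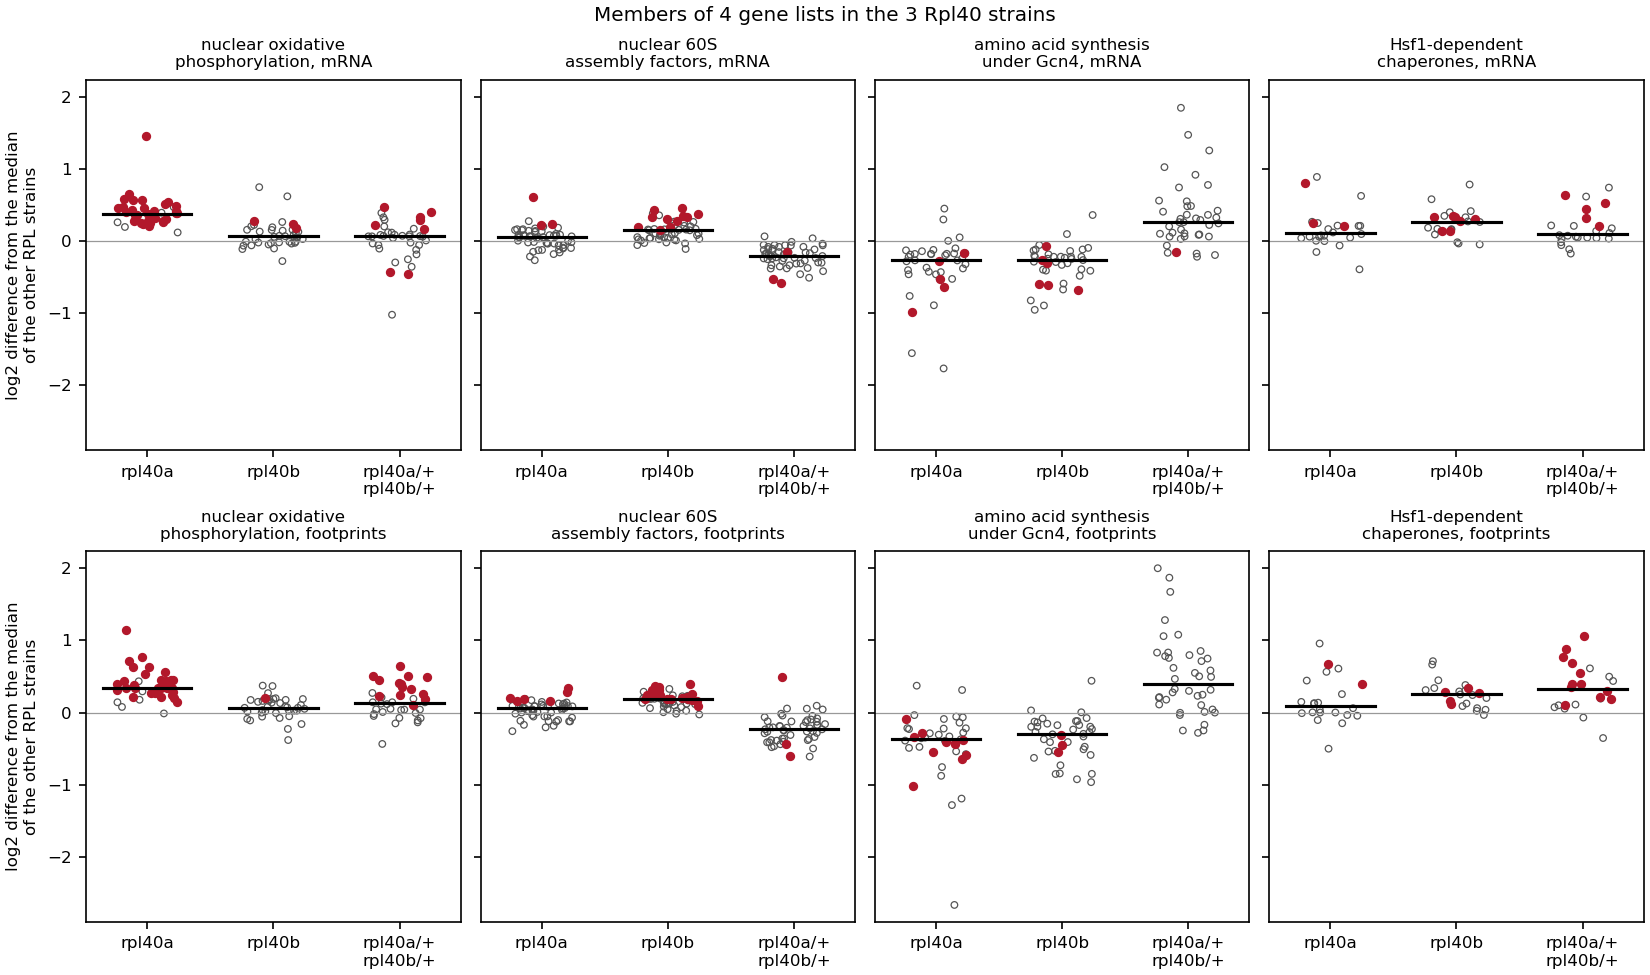
Log2 difference of each gene from the median of the other RPL strains in rpl40a, rpl40b and rpl40a/+ rpl40b/+, for 4 gene lists in mRNA (top) and footprints (bottom). Points are genes, bars are medians, and red points lie outside the range of all other RPL strains. In rpl40a 33 of 38 oxidative phosphorylation genes are red in mRNA, all of them above 0.

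The rpl40b strain had the least spread of differences among the 3. Its deviations from the median of all RPL strains had an SD of 0.23 across genes in mRNA and 0.20 in footprints, against 0.27 and 0.28 in rpl40a and 0.29 and 0.32 in rpl40a/+ rpl40b/+. In footprints its median over all genes, 0.11, was above that of every other RPL strain (highest 0.09). Oxidative phosphorylation genes were at 0.06 and 0.07, close to all genes. Assembly factors of both subunits stood somewhat high. Of 53 nuclear 60S assembly factors, 11 lay above every other RPL strain in mRNA (20.8%, against 9.72% of all genes) and 18 in footprints (34%, against 13.8%), with medians of 0.15 and 0.19 against 0.05 and 0.11 for all genes. The highest median of the other RPL strains was 0.20 in mRNA, in rpl24b and above rpl40b, and 0.15 in footprints.

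Of 59 factors of 40S assembly, 8 lay above in rpl40b mRNA (13.6%, against 9.72% of all genes) and 19 in footprints (32.2%, against 13.8%). Of 22 subunits of RNA polymerases I and III, 6 (27.3%) and 9 (40.9%) did. In mRNA rpl24b had higher medians than rpl40b in both lists, at 0.182 against 0.134 for 40S factors and 0.157 against 0.146 for the polymerases. In footprints rpl40b was at 0.166 and 0.180, above the highest of the others at 0.155 and 0.092. NOP7, a factor of 60S assembly that is among the most expressed, was inside the range all the same, at 270.4 RPKM of mRNA and 258.4 of footprints, against 175.8, 252.5 and 285.4, and 132.7, 233.2 and 274.7. Under median-of-ratios scaling the footprint counts in rpl40b were 3 of 53, 3 of 59 and 4 of 22, beside 5.31% of all genes, so the high footprint counts did not hold under that scaling. In mRNA they were 8 of 53 for nuclear 60S factors, beside 6.11% of all genes.

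In rpl40a/+ rpl40b/+ the assembly factors stood low. The medians were -0.21 in mRNA and -0.23 in footprints for nuclear 60S factors, -0.22 and -0.29 for cytoplasmic 60S maturation factors, and -0.20 and -0.23 for 40S factors, against 0.02 and -0.10 for all genes. Few single members left the range of the other strains: 3 of 53 nuclear 60S factors lay below it in mRNA (5.66%, against 5.1% of all genes) and 2 in footprints (3.77%, against 14.3%), and rpl41a had medians of -0.42 and -0.56 in that list. In mRNA 13 of 53 lay below under median-of-ratios scaling, beside 8.19% of all genes. TIF6, which keeps unfinished 60S subunits from joining 40S subunits, had 489.4, 415.6 and 381.3 RPKM of mRNA in rpl40a, rpl40b and rpl40a/+ rpl40b/+, against 288.3, 395.0 and 457.1, so rpl40a was above the range and rpl40a/+ rpl40b/+ near the middle of it. Of 70 genes for 60S proteins of families that no strain lacks, 18 lay below the range in footprints of rpl40a/+ rpl40b/+ (25.7%, against 14.3%), and 4 did so under median-of-ratios scaling, beside 10.9%.

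Genes of amino acid synthesis under Gcn4, the activator made when amino acids or initiation run short, stood high in rpl40a/+ rpl40b/+ and low in both single deletions. The medians were -0.27 in rpl40a, -0.27 in rpl40b and 0.26 in rpl40a/+ rpl40b/+ in mRNA (40 tested), and -0.37, -0.30 and 0.40 in footprints. The other RPL strains ran from -0.44 in rpl7a to 0.82 in rpl41a in mRNA, so all 3 strains lay inside the spread of the class, and wild type was at 0.02 and 0.16. In rpl40a 11 of 40 lay below every other RPL strain in footprints (27.5%, against 6.85% of all genes). Under median-of-ratios scaling 6 did so (15%, against 10.2%). Without rpl7a 21 did, and with any 1 strain left out at most 381 of all 4222 genes did. In rpl40b 6 of 40 lay below in mRNA (15%, against 3.49%) and 3 in footprints (7.5%, against 1.89%). HOM2, an enzyme of threonine and methionine synthesis, had 470.0, 445.2 and 825.2 RPKM of mRNA in rpl40a, rpl40b and rpl40a/+ rpl40b/+, against 424.1, 623.8 and 1434.

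GCN4 itself, the member of that list with the most mRNA, was spread widely in footprints and little in mRNA. Its footprints were at 84.7 RPKM in rpl40a, 72.3 in rpl40b and 222.9 in rpl40a/+ rpl40b/+, against 62.7, 105.2 and 276.9 in the other RPL strains and 111.7 and 124.7 in wild type. Its mRNA was at 1796, 1650 and 1562 RPKM, against 1668, 1738 and 1899, and 1771 and 1748 in wild type, so rpl40b and rpl40a/+ rpl40b/+ were just below the lowest of the others. The footprint level minus the mRNA level (log2) was -4.39, -4.49 and -2.80, with the other RPL strains between -4.90 in rpl7a and -2.72 in rpl41b and wild type at -3.98 and -3.80. GCN4 translation is known to be held down by short reading frames upstream of the gene and released when initiation is impaired.

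**Figure D4:**
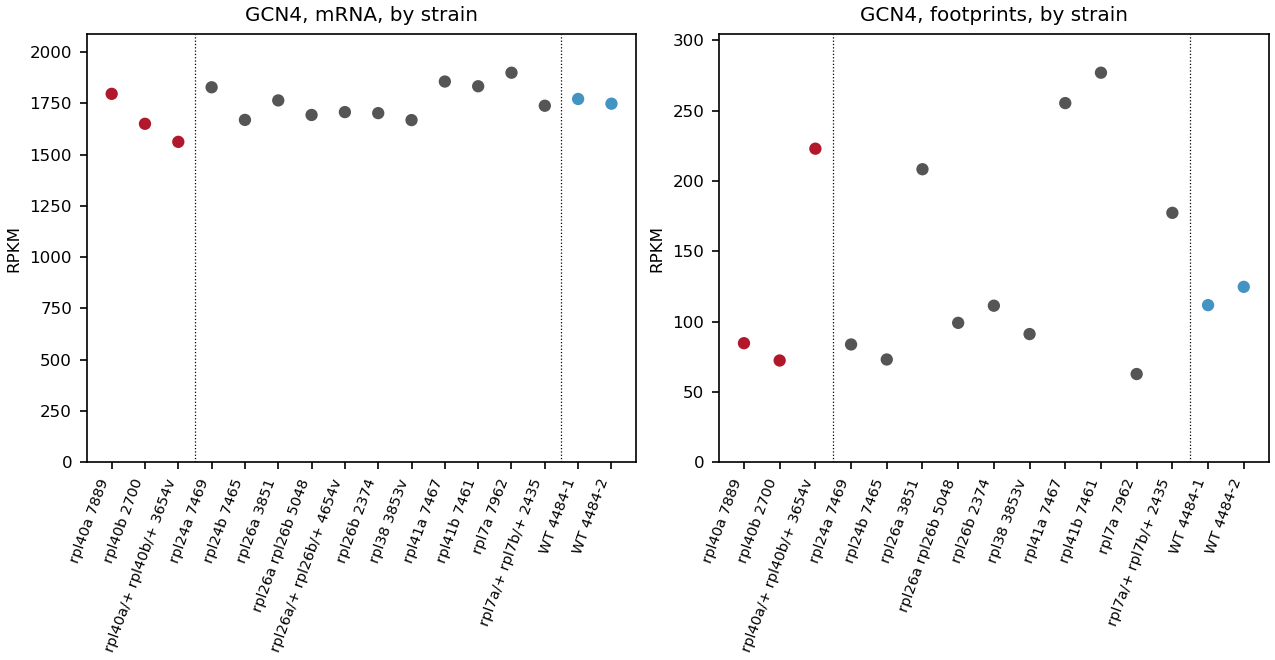
RPKM of GCN4 in mRNA (left) and footprints (right), with 1 point per library, for the 3 Rpl40 strains (red), the other RPL strains (grey) and wild type (blue). Footprints are at 222.9 RPKM in rpl40a/+ rpl40b/+ and at 84.7 and 72.3 in rpl40a and rpl40b, while the mRNA of these strains runs from 1562 to 1796 RPKM.

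Chaperone genes under the heat shock factor Hsf1 stood high in footprints of rpl40a/+ rpl40b/+. Of 22 tested, 12 lay above every other RPL strain (54.5%, against 6.85% of all genes) and none below, with a median of 0.33 against -0.10 for all genes, and in mRNA 5 of 24 did (20.8%, against 9.33%), with a median of 0.09. Under median-of-ratios scaling the counts were 16 of 22 and 2 of 24, beside 13% and 7.9% of all genes. HSC82, the constitutive Hsp90, had 2442, 2659 and 3125 RPKM of footprints in rpl40a, rpl40b and rpl40a/+ rpl40b/+, against 2109, 2438 and 2828. SSA2, a cytosolic Hsp70, had 3143, 3364 and 3597 RPKM, against 2913, 3163 and 3478. SSE1 was also above the range in rpl40a/+ rpl40b/+, and SSC1 was inside it. HSP104, a disaggregase chosen after its value was seen, had 281.8 RPKM in rpl40a/+ rpl40b/+, against 95.7, 134.5 and 254.0, a log2 difference of 0.92 ± 0.39 (SE, limma adjusted p = 0.681). In rpl40b 7 of 24 lay above the range in mRNA (29.2%, against 9.72% of all genes) and 5 of 22 in footprints (22.7%, against 13.8%). Under median-of-ratios scaling 2 did in each (8.33% and 9.09%, against 6.11% and 5.31%).

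Oxidative phosphorylation footprints also stood above the range for 14 of 38 genes in rpl40a/+ rpl40b/+ (36.8%, against 6.85%). Their median was 0.13, inside the -0.10 to 0.23 of the other RPL strains. In mRNA 6 of 38 lay above (15.8%, against 9.33%). The list of hexose transporter genes, which also holds regulators of glucose sensing, had medians of -0.30 in mRNA (10 tested) and -0.48 in footprints (8 tested). Both lay below every other RPL strain. The lowest of the others, rpl41a, was close in mRNA at -0.29 and was at -0.35 in footprints. Of the members, 1 of 10 lay below the range in mRNA (10%, against 5.1%) and 2 of 8 in footprints (25%, against 14.3%). The 4 most expressed were the transporters HXT2 and HXT3 and the regulators MIG1 and STD1, and all were inside the range in mRNA. In footprints only MIG1, which is not a transporter, lay below it, at 73.9 RPKM against a lowest value of 83.1. Genes of the phosphate regulon had medians of 0.34 and 0.35, against -0.43 and -0.41 in rpl40a and -0.15 and -0.15 in rpl40b. The other RPL strains ran from -0.45 in rpl24a to 0.44 in rpl7a/+ rpl7b/+ in mRNA and from -0.33 to 0.32 in footprints. VTC1 encodes a subunit of the complex that makes polyphosphate in the vacuole. It had 187.5, 232.5 and 368.0 RPKM of mRNA in rpl40a, rpl40b and rpl40a/+ rpl40b/+, against 194.0, 253.0 and 351.8. PHO86, VTC4 and VTC2, the others of the 4 most expressed, were inside the range in rpl40a/+ rpl40b/+ mRNA.

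**Figure D5:**
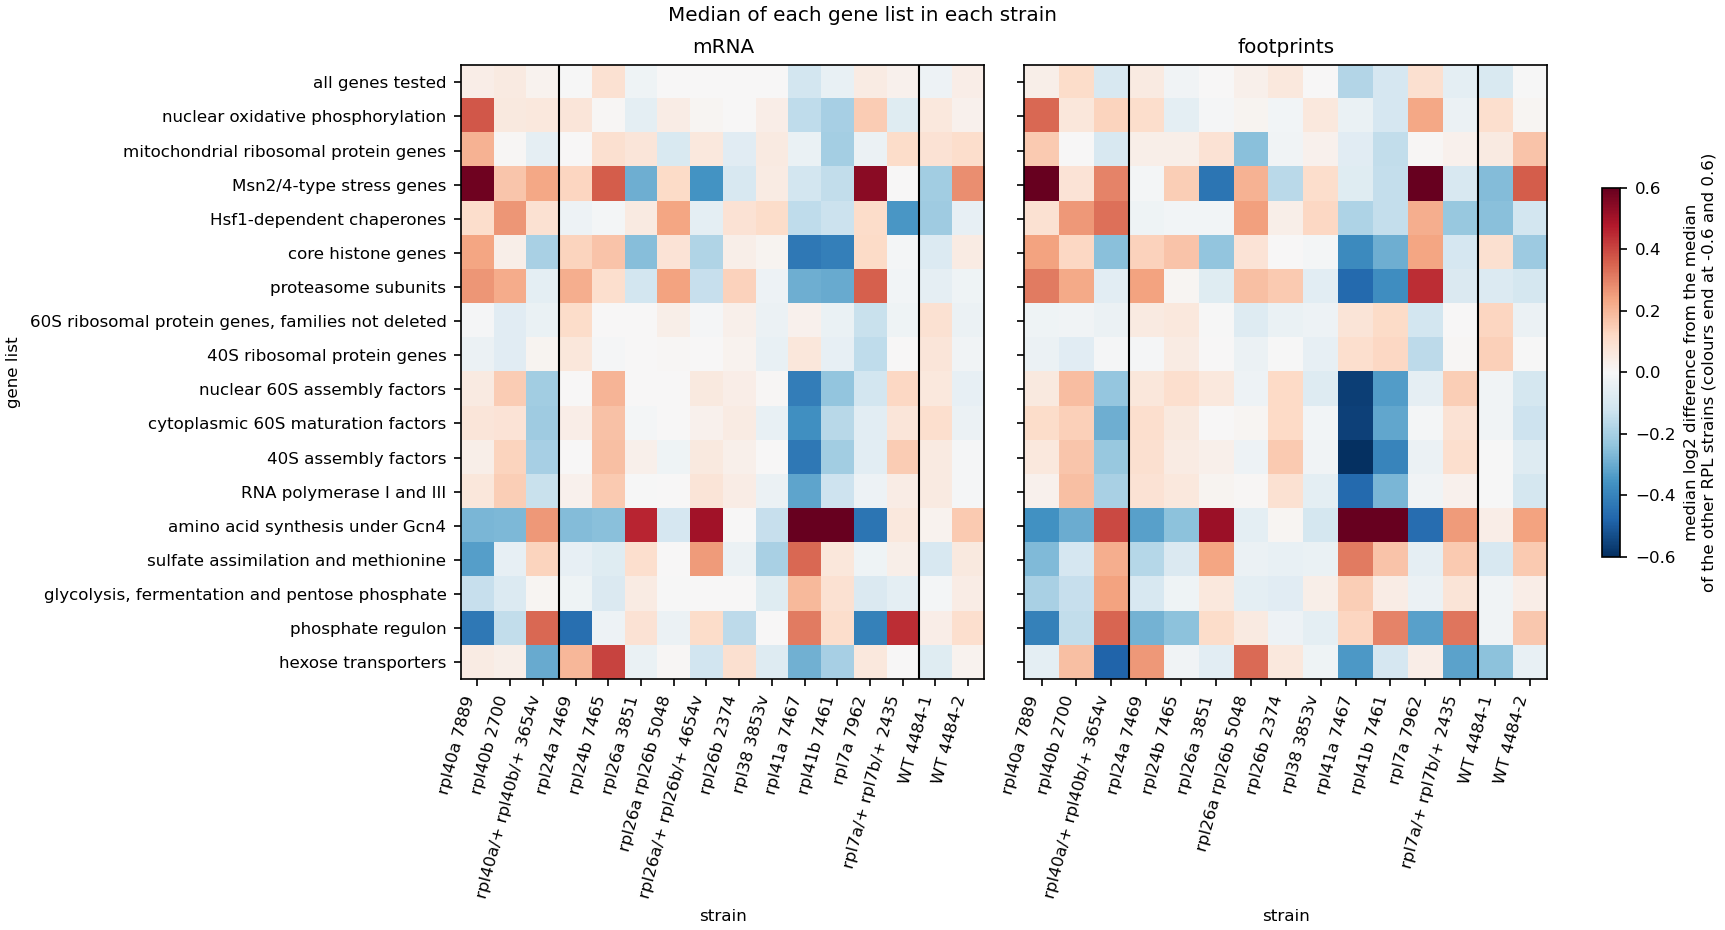
Median log2 difference of all genes and of the gene lists named in the rows in each strain (columns) from the median of the other RPL strains, in mRNA (left) and footprints (right), with colours that end at -0.6 and 0.6. The 3 Rpl40 strains are left of the first line and wild type right of the second. The oxidative phosphorylation row is at 0.37 and 0.34 in rpl40a, and the amino acid row is below 0 in rpl40a and rpl40b and above 0 in rpl40a/+ rpl40b/+.

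The single deletions were then set against rpl40a/+ rpl40b/+ directly, as the mean of rpl40a and rpl40b minus the third strain. In mRNA only RPL40A, lower by a log2 difference of -3.81 ± 0.11 (SE, limma adjusted p = 6.35e-11), and RPL40B, at -1.95 ± 0.13 (adjusted p = 2.3e-06), passed the test (0.0392% of genes called), with 394 genes at an unadjusted p under 0.05. In footprints RPL40A (-2.502 ± 0.13, adjusted p = 8.83e-08), RPL40B (-1.64 ± 0.18, adjusted p = 0.00105) and YER039C-A passed (0.0711%), with 459 at an unadjusted p under 0.05. YER039C-A, a short open reading frame of chromosome V, had 20.1 RPKM of footprints in rpl40a and 16.1 in rpl40b, against 1.098 in rpl40a/+ rpl40b/+, a log2 difference of 3.18 ± 0.49 (adjusted p = 0.0218). These levels rest on 21, 18 and 1 reads, and the mRNA had 0, 1 and 4 reads. The call was lost with all 25 strains in the fit (adjusted p = 0.1), with a pseudocount of 5 RPKM (0.177), and without rpl40b (0.0877) or rpl40a (0.227).

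Each of these means joins a strain that lacks a gene with a strain that keeps it. Without rpl40a, RPL40A had a log2 difference of -0.07 in mRNA and 0.25 in footprints, and without rpl40b, RPL40B was at 1.00 and 1.20, that is, higher in rpl40a than in rpl40a/+ rpl40b/+ (limma adjusted p = 0.0332 in mRNA and 0.0877 in footprints).

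Several lists had most members on the same side. Both single deletions lay below rpl40a/+ rpl40b/+ in 35 of 40 Gcn4-type amino acid genes in mRNA (87.5%, against 35.3% of all genes) and in 37 of 40 in footprints (92.5%, against 19.8%). They lay below it in 8 of 9 phosphate regulon genes in mRNA and 8 of 8 in footprints. They lay above it in 47 of 53 nuclear 60S assembly factors in mRNA (88.7%, against 41.9% of all genes) and in 46 in footprints (86.8%, against 60%), and in 50 (84.7%) and 53 (89.8%) of 59 factors of 40S assembly. The 33 proteasome subunits gave 30 in mRNA (90.9%) and 26 in footprints (78.8%), and the 8 core histone genes 8 (100%) and 7 (87.5%), where the footprint shares stand nearer to the 60% of all genes. Of 22 Hsf1 chaperones, 16 lay below it in footprints (72.7%, against 19.8% of all genes), but in mRNA 5 of 24 lay below (20.8%, against 35.3%) and 8 above (33.3%, against 41.9%). All these comparisons share the single rpl40a/+ rpl40b/+ library of each assay.

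The strain rpl40a was also set against rpl40b. Only RPL40A (log2 difference -7.47 in mRNA and -5.51 in footprints, limma adjusted p = 5.06e-14 and 1.67e-11) and RPL40B (5.90 and 5.69, adjusted p = 6.99e-12 and 8.84e-10) passed, 0.0392% of genes in mRNA and 0.0474% in footprints, with 64 and 102 at an unadjusted p under 0.05. The oxidative phosphorylation medians of 0.37 in rpl40a and 0.06 in rpl40b in mRNA are thus a difference between 2 libraries for which no member passed.

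As a description of likeness, deviations from the median of all RPL strains were correlated across genes, without RPL40A and RPL40B. These values share the median they are measured from, and genes are not replicates. Over 5101 genes in mRNA rpl40a and rpl40b correlated at 0.37, and each correlated negatively with rpl40a/+ rpl40b/+, at -0.35 and -0.41. Over 4220 genes in footprints the values were 0.26, -0.32 and -0.42. The strain most like rpl40a was rpl7a in both assays (0.38 and 0.45). The strain most like rpl40b was rpl40a in mRNA (0.37) and rpl24a in footprints (0.48). The strain most like rpl40a/+ rpl40b/+ was rpl41a in mRNA (0.42) and rpl7a/+ rpl7b/+ in footprints (0.62).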

How the data were processed

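Each assay came as a single table with 25 library columns, which the authors headed RPKM, per the file headers. The deposited numbers behaved as a signal in which 1 read was worth a library constant times the coding length less 60 nt. Whole reads were recovered from these steps (tolerance 0.03 reads), and RPKM was recomputed from them per kilobase and 1000000 recovered reads. Annotated lengths gave whole reads in every library for 87.6% of 5812 frames. Lengths of 1085 others were found from the values, 351 frames were at 0 and 153 were left out. The design had taken the columns as RPKM, so this departs from it. An unnamed line in each table stayed out. The R64 gene table named 5994 of 6679 rows.

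CASAVA, bcl2fastq 2.17 and Bowtie2 are named in the submitters' processing notes. The sources used here state no build, annotation, strand use or handling of multiple matches.

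Genes averaging 10 RPKM or more across the 25 libraries entered limma 3.58.1 (R 4.3.3, trend, two-sided, Benjamini-Hochberg adjusted p under 0.05) on log2(RPKM + 1), in the RPL strains only. Fold changes on that scale understate those of low genes. One model held the 3 Rpl40 strains as a class, and another gave each its own term. Translational efficiency was taken within a strain, so the strain is the block. The pairing comes from the strain numbers in the labels: the footprint deviations of a strain correlated with those of its own mRNA at 0.407 to 0.695, and best with its own in 12 of 13 strains. The fits were tested on simulated data.

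The strains, gene lists and tests were chosen with earlier results of these data known. The comparison of rpl40a with rpl40b and the list counts under other settings were added after the data were seen. Named genes were RPL40A, RPL40B, RPS31, UBI4, RPN4, UBP6, the flanking genes, those past a test and, where fewer than 5 passed, up to 5 outside the range of the other RPL strains with a mean of at least 50 RPKM. Examples from lists are among the 4 members most expressed in the other RPL strains unless stated.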

Additional observations from a re-analysis of the deposited data

Results flagged for a closer look

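In footprints of the other RPL strains, 4 of 28 named genes had a library that stood apart from the rest of its group, where chance gives about 1 in 20 groups of 10. UBI4 was at 499.6 RPKM in rpl7a, PTR2 at 42.2 RPKM in rpl7a/+ rpl7b/+, MLP1 at 22.8 RPKM in rpl26a and AKR1 at 39.6 RPKM in rpl26a rpl26b, each the highest of its group.

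Differences between Rpl40 strains that passed the limma test were as follows. The single deletions minus rpl40a/+ rpl40b/+ gave RPL40A at -3.81 in mRNA and -2.502 in footprints (log2), RPL40B at -1.95 and -1.64, and YER039C-A at 3.18 in footprints, which rests on 1 read in rpl40a/+ rpl40b/+. The strain rpl40a minus rpl40b gave RPL40A at -7.47 and -5.51 and RPL40B at 5.90 and 5.69.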

How the results depend on the processing

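In all comparisons the calls rested on few genes, and 195 of 225 counts under other settings stayed within 1.5 times the value reported. Without a filter on low values, the counts of genes past the limma test were 1 in mRNA and 1 in footprints for the 3 Rpl40 strains, 8 and 21 for rpl40a, 11 and 17 for rpl40b, 10 and 14 for rpl40a/+ rpl40b/+, 20 and 33 for the single deletions against rpl40a/+ rpl40b/+, and 12 and 33 for rpl40a against rpl40b. Of the 33 for the single deletions, 30 averaged under 10 RPKM. In footprints rpl40a/+ rpl40b/+ gave 1 gene (2 as reported) with all 25 strains in the fit, under median-of-ratios scaling and with a pseudocount of 5 RPKM, and rpl40b gave 2 (1 as reported) with all 25 strains and under median-of-ratios scaling. The cause was not tested.

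Leaving out 1 strain at a time gave 0 to 4 genes in footprints and 0 to 1 in mRNA for rpl40a/+ rpl40b/+, 1 to 4 and 1 to 2 for the single deletions against it, and 1 to 2 in footprints for rpl40a. The highest footprint count for rpl40a/+ rpl40b/+, and that of 2 for rpl40a, came without rpl7a/+ rpl7b/+. The class comparison gave 0 each time. YER039C-A against the other RPL strains lost its call in 9 settings (limma adjusted p 0.0551 to 0.303). The single deletions minus rpl40a/+ rpl40b/+ turned to 0.253 for RPL40A in footprints without rpl40a, and to 1.202 in footprints and 0.997 in mRNA for RPL40B without rpl40b, because only the strain that keeps the gene was then left.

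With no replicate block, translational efficiency gave 0 genes past the test, as with the block. Each strain has 1 library per assay, so a difference of a single strain cannot be told apart from one of its library.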
